A study of Mus musculus with 3 samples.

Results

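Among 4008 barcodes that passed a gate for neutrophils, 84 held at least 3 UMIs (unique molecular identifiers, which count captured RNA molecules) over Hspa1a, Mgarp, Adm and Gbe1, and these 84 barcodes are described here against the other 3924. A barcode entered the gate when it had 200 genes or more, no more than 10% of its UMIs on mitochondrial genes, and 1% or more on S100a8 and S100a9. It left out every barcode with a UMI of Cd3d, Cd3e, Cd3g or Epcam, or with more than 1 UMI of C1qa, C1qb and C1qc. The barcodes were chosen by their UMI counts of these 13 genes, whose values are given as a description and are counted among no result. The members were 28 of 1067 gate barcodes in replicate 1, 19 of 1497 in replicate 2 and 37 of 1444 in replicate 3. Those are 2.62% (95% Clopper-Pearson interval 1.75 to 3.77), 1.27% (0.766 to 1.97) and 2.56% (1.81 to 3.51), with a mean of 2.15% ± 0.765 (SD, n = 3). The intervals, which cover counting error only, overlap between all 3 libraries.

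The libraries were single-cell RNA preparations of viable CD45+ DAPI- cells sorted from tumours that 2208L, a mouse mammary tumour line, had formed within 4 weeks of injection into the mammary gland. Tumours measured 0.7 to 1 cm, and all 3 libraries carry the same label, with no untreated or tumour-free group. No strain, age or treatment of the mice is given in the sources used here. The labels do not state whether each library is its own mouse, and a p-value below measures only how much these 3 preparations vary. They list the cell type as tumour in spite of the CD45 sort and refer in 1 place to a 5′ platform and in another to a 3′ protocol. The libraries held 9846404, 15259236 and 9445914 UMIs in 4424, 6036 and 3876 deposited barcodes, and 14226 of all 14336 passed the filters on genes and mitochondrial UMIs. Pairs of libraries shared 25 to 37 barcode sequences, of which none was a member in both.

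When oxygen is short, prolyl hydroxylases stop marking the alpha subunits of hypoxia-inducible factor (HIF) for degradation, and HIF then switches on genes of glycolysis, of adaptation of mitochondria and of blood vessel growth. Neutrophils depend largely on glycolysis for energy, and they store glycogen. The heat-shock response is a separate program, in which heat-shock factor switches on chaperones when proteins misfold. Of the 4 rule genes, Hspa1a (ENSMUSG00000091971, chr17:34969190-34972156 on GRCm38) encodes an inducible chaperone of the Hsp70 family, Mgarp (chr3:51388412-51396738) a mitochondrial protein that binds the transport machinery, Adm (chr7:110627661-110629820) the vasodilator peptide adrenomedullin, and Gbe1 (chr16:70313949-70569716) the glycogen branching enzyme. Mgarp, Adm and Gbe1 are known from other cells as hypoxia-responsive genes. Any excess of HIF targets in the members is therefore not independent of how they were chosen.

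The promoters of the genes that carry the results are shown to set these programs side by side. They are the 250 bases before the RefSeq start on GRCm38.p6, written 5′ to 3′ on the strand of the gene. Capitals mark heat-shock elements (GAANNTTC or TTCNNGAA) in the windows of Hspa1a at chr17:34972157-34972406 (minus strand) and of Hspa1b at chr17:34959239-34959488 (minus strand). In the windows of Adm at chr7:110627407-110627656, of P4ha1 at chr10:59323046-59323295 and of the lactate dehydrogenase gene Ldha at chr7:46845554-46845803 (all plus strand), capitals mark the HIF core motif (ACGTG or GCGTG). P4ha1 encodes a subunit of the collagen prolyl hydroxylase, which is not one of those that mark HIF. Motifs were read on both strands, and overlapping matches were counted apart.
Hspa1a: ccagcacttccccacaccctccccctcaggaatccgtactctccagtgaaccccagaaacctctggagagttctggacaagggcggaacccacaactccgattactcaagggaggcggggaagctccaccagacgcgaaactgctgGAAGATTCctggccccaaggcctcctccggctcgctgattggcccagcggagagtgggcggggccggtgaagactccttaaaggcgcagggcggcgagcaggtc
Hspa1b: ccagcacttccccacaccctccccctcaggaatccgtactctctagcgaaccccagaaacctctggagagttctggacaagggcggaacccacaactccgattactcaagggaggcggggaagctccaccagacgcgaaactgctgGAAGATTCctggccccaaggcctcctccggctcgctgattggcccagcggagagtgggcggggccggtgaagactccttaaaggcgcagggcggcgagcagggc
Adm: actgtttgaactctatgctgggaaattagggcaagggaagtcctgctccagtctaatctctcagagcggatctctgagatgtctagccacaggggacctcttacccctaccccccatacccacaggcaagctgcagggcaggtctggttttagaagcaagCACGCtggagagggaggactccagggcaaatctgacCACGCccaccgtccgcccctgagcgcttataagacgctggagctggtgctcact
P4ha1: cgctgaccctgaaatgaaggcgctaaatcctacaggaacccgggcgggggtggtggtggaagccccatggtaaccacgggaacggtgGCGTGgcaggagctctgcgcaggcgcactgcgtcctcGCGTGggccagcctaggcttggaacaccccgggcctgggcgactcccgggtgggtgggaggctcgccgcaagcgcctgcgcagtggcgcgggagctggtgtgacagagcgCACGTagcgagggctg
Ldha: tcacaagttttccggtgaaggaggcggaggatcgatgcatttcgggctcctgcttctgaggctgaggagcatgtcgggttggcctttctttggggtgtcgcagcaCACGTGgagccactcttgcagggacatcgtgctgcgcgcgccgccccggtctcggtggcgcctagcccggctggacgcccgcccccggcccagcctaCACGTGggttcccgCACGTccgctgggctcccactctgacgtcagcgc
The HIF core motif occurred 2 times in the Adm window, 3 times in P4ha1 and 5 times in Ldha, and it was also present once in the Mgarp window and absent from these letters in the Gbe1 and Hspa1a windows. Among genes called higher in the members, 8 of the 10 HIF targets with a RefSeq window and 7 of 10 glycolysis genes held it, and so did 38.6% of all 27025 windows of the same length. These counts include windows that overlap annotated exons, as in Higd1a (250 of 250 bases) and Fam162a (160). Hilpda, which had the lowest adjusted p of the called genes, had none. A heat-shock element stood in 12.9% of all windows. Among the same called genes it stood in 1 of 10 HIF targets, Hilpda, and in 1 of 10 glycolysis genes, Pfkl (2 times). The chaperone genes Hspa8 and Hsp90aa1 had no window to read. The element also stood in the windows of Hspa1a and Hspa1b, which are identical at 247 of 250 bases (98.8%). The transcripts of these neighbouring genes are near-copies as well, so reads could be split between them, and Hspa1b is not independent of the rule. A motif match describes letters and does not show that a factor binds.

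Few members held Hspa1a together with another rule gene, which a threshold on a sum of sparse counts can itself produce. Hspa1a was present in 28 members (169 UMIs, up to 21 in 1 barcode), Adm in 44 (142 UMIs, up to 17), Gbe1 in 39 (88 UMIs, up to 4) and Mgarp in 13 (17 UMIs, never above 2). In CPM, the UMIs of a gene per 1000000 UMIs of its class in a library, Hspa1a stood at 1356, 1113 and 1426 in members of replicates 1, 2 and 3, against 17.2, 16.9 and 12.5 in the other neutrophil-gate barcodes. Adm stood at 1789, 986 and 803 CPM in members and 40.1, 11.1 and 18.2 in the others. Gbe1 stood at 548, 572 and 836 CPM in members against 66.8, 55.9 and 61.3 in the others, and Mgarp at 173, 95.4 and 131 CPM in members against 4.77, 5.85 and 6.81 in the others. These gaps follow from the threshold. A single rule gene accounted for all the rule-gene UMIs in 52 members, of which 20 held Hspa1a alone, 19 Adm alone and 13 Gbe1 alone. Only 8 members held Hspa1a together with any of the other 3, and 1 held both Hspa1a and Mgarp. Since these counts chose the members, they cannot show whether the genes mark 1 state, and the members are called by their rule genes here. Over all gate barcodes, without the member threshold, each rule gene was also set against the UMIs of the other 3, as a description. Adm stood at 255, 106 and 273 CPM in barcodes with 2 or more UMIs of the other 3 genes, against 89.4, 25.7 and 28.6 in those with none. Gbe1 stood at 194, 196 and 263 CPM in barcodes with 2 or more, against 70.8, 60.6 and 77.7 in those with none, and Mgarp at 59.0, 51.1 and 61.6 CPM with 2 or more, against 5.50, 5.76 and 6.50 with none. Hspa1a stood at 124, 0 and 87.7 CPM with 2 or more, from 14 UMIs, against 55.5, 37.5 and 58.8 with none. The rule was set with earlier results of these data known, so these levels cannot show that its genes go together.

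**Figure D1:**
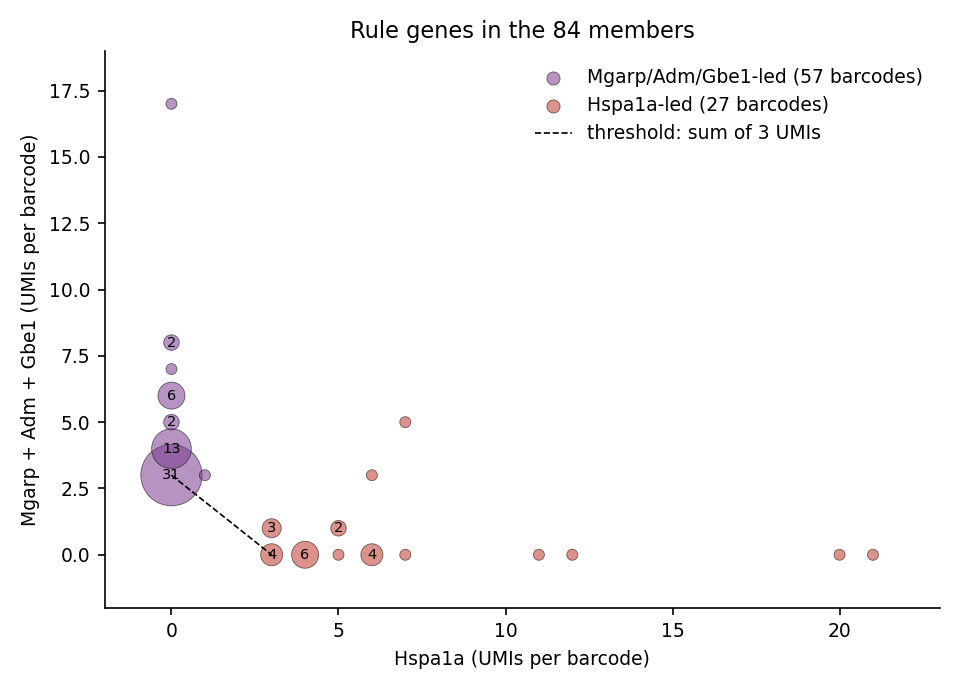
Hspa1a UMIs (horizontal axis) against the summed UMIs of Mgarp, Adm and Gbe1 (vertical axis) in each of the 84 members, with circle area set by the number of members at a point and the dashed line at the threshold of 3 UMIs. Nearly all members lie along 1 of the axes: 56 hold no Hspa1a UMI, 20 hold Hspa1a alone, and 8 hold both.

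The threshold cut a continuous range. The gate held 3547 barcodes with 0 rule-gene UMIs, 307 with 1, 70 with 2, 35 with 3 and 49 with 4 or more, and members held a median of 4. Barcodes just outside the threshold, with 2 UMIs, had a median of 1353 UMIs in total, and those just inside, with 3, had 1336. Barcodes with none had 946. The rule thus chose deeper barcodes: members had medians of 1148.5, 1517 and 1422 UMIs in replicates 1, 2 and 3, and the others 913, 868.5 and 1117. Outside the gate, 2.37% of 1811 barcodes with C1q transcripts (macrophages, with a median of 4564 UMIs) and 0.659% of 2578 with Cd3 transcripts (T cells, median 1473.5) reached 3 rule-gene UMIs. The Hspa1a level was 31.1 CPM in both of these, above the 15.2 CPM of the other neutrophil-gate barcodes, whereas Gbe1 was at 16.4 CPM with C1q and 13.6 CPM with Cd3 against 60.7 CPM in the other neutrophil-gate barcodes.

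The members carried neutrophil transcripts outside the rule. Csf3r, the receptor for granulocyte colony-stimulating factor, stood at 520, 795 and 410 CPM in members and 482, 797 and 728 in the others. G0s2, an inhibitor of lipolysis that is abundant in neutrophils, stood at 10188, 12147 and 6915 CPM in members against 9346, 9957 and 8750 in the others. Over the 8 neutrophil markers that the gate did not use, the sum was 14171, 16599 and 10668 CPM in members and 13920, 15308 and 13961 in the others. G0s2 made up most of this sum in each library. Gene by gene, the 8 had a median log2 difference of -0.53, against -0.28 for all tested genes, and 6 lay below 0. In the edgeR test described below, 4 were lower at an unadjusted p under 0.05 and 0 higher. Of these 8, only Trem1, a receptor that amplifies inflammatory signals, was called, at a lower level in members. Markers of other cells were scarce: NK cell, red cell and eosinophil, basophil or mast cell genes had 0 UMIs in members, B or plasma cell genes had 1 and T cell genes 5. Dendritic cell genes summed to 260, 477 and 246 CPM in members against 905, 973 and 250 in the others, and macrophage or monocyte genes to 635, 700 and 819 in members against 853, 828 and 492 in the others. Epithelial genes had 9 UMIs in members and fibroblast or endothelial genes 1. At least 1 UMI of the T cell, B cell, NK cell, dendritic cell, macrophage or epithelial lists was present in 64.3%, 73.7% and 67.6% of members and in 52.0%, 63.1% and 57.4% of the others. Malat1, a nuclear RNA, stood at 53654, 52658 and 54485 CPM in members and 40437, 42598 and 39064 in the others (adjusted p = 0.352). Ribosomal protein genes took 6.34%, 5.44% and 6.85% of member UMIs and 7.54%, 7.87% and 6.90% of those of the others. Calls at matched depth, and without barcodes that held transcripts of other cells, are given below as alternatives. The part that depth, Malat1 or these transcripts have as a cause was not tested.

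Counts summed per library over the members and over the other neutrophil-gate barcodes were then compared, to ask which genes outside the rule differed. In members, 94 of 4320 tested genes were higher and 65 lower (3.68% called, 2.18% higher and 1.5% lower; edgeR's quasi-likelihood test with library as a block, Benjamini-Hochberg adjusted p under 0.05). The member sums held 34648, 31448 and 61026 UMIs, against 1047514, 1538357 and 1762726 in the others, which limits the calls. The lower calls rest on few member UMIs, with a median of 26 and 20 of 65 genes under 10, while the higher calls had a median of 65.5. DESeq2 called 71 higher and 20 lower. With the others drawn to the depth of members, 65 of 2563 tested genes were higher and 16 lower, so mainly lower calls were lost. The count fell to 88 without replicate 1, to 47 without replicate 2 and to 40 without replicate 3. The median over all tested genes was -0.28 on the log2 scale, and each list of genes is set beside that value.

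HIF target genes outside glycolysis were higher as a group. Of the 26 listed, 20 could be tested and 13 were called, all of them higher, with a median log2 difference of 1.05. Hilpda (chr6:29272488-29275446), which encodes a lipid droplet protein that inhibits fat breakdown, stood at 5830, 4802 and 6637 CPM in members and 2431, 1388 and 1751 in the others. The groups did not overlap, and the log2 difference was 1.64 ± 0.20 (SE, here and below; adjusted p = 1.06e-12). A Hilpda UMI was present in 91.7% of members (median 1319 UMIs), 35.3% of the others (median 968) and 16.2% of barcodes with Cd3 (median 1473.5). Ero1l, an oxidase that forms disulfide bonds in the endoplasmic reticulum, stood at 1732, 2194 and 2130 CPM in members and 663, 515 and 589 in the others (1.77 ± 0.22, adjusted p = 2.2e-12). Ndrg1, a stress-responsive gene, stood at 202, 509 and 410 CPM in members against 105, 96.9 and 93.6 in the others (1.93 ± 0.31, adjusted p = 3.35e-07).

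Mitochondrial HIF targets were among those called. Higd1a, a protein of the inner mitochondrial membrane, stood at 1443, 1654 and 1786 CPM in members and 650, 551 and 559 in the others (1.46 ± 0.22, adjusted p = 4.58e-08). Bnip3, a receptor for the removal of mitochondria by autophagy, stood at 1385, 1399 and 2097 CPM in members against 590, 618 and 692 in the others (1.34 ± 0.22, adjusted p = 9.86e-07), and its relative Bnip3l was higher by 1.01. All 3 member libraries lay above all 3 libraries of the others for both Higd1a and Bnip3. Also higher were P4ha1 by 1.38, Ddit4 (an inhibitor of the growth regulator mTORC1) by 1.30, the transcriptional repressor Bhlhe40 by 1.20, Fam162a by 1.10, the lipid droplet coat gene Plin2 by 0.94, and Egln3, one of the prolyl hydroxylases that mark HIF, by 0.95. Vegfa, the angiogenic growth factor, was higher by 1.58 ± 0.49 from 18 member UMIs (adjusted p = 0.0409). Hif1a itself was at 231, 286 and 213 CPM in members and 179, 178 and 190 in the others, which did not pass (0.37, adjusted p = 0.682). Ankrd37 (0.83, adjusted p = 0.0694), Mxi1 (-0.42) and Pfkfb4 (-1.41) did not pass either. P4ha2, Car9, Ndufa4l2, Epas1, Stc2 and Rora had 0 UMIs in members. The number of HIF targets called was 10, 8 and 4 without replicates 1, 2 and 3. It was 2, with a median of 0.74, among the 27 members and 1644 others that held no UMI of other cell types.

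Of 22 listed genes of glycolysis and of glucose or lactate transport, 19 could be tested, and 10 passed the test, all of them higher. The median log2 difference was 0.98, and the 9 that did not pass were Slc2a1, Slc2a3, Hk1, Hk3, Pfkp, Pfkfb3, Pgk1, Pkm and Slc16a3. At the entry, Hk2, which traps glucose by phosphorylation, stood at 779, 1654 and 1671 CPM in members and 608, 499 and 486 in the others (1.34 ± 0.23, adjusted p = 3.17e-06), with replicate 1 the nearest to the others. Gpi1, the next enzyme, stood at 722, 1336 and 1655 CPM in members against 365, 369 and 398 in the others (1.67 ± 0.24, adjusted p = 5e-09). Pfkl, a subunit of phosphofructokinase, stood at 260, 254 and 492 CPM in members against 144, 101 and 128 in the others (adjusted p = 0.000286), and aldolase Aldoa was higher by 0.90. In the lower pathway, Gapdh stood at 5455, 6519 and 7915 CPM in members and 2890, 3043 and 3051 in the others (1.11 ± 0.20, adjusted p = 4e-06), and Tpi1, Pgam1 and Eno1 were higher by 1.04, 0.98 and 0.71. At the branch from pyruvate, Ldha, which makes lactate, stood at 3954, 4929 and 5063 CPM in members against 2057, 1702 and 1978 in the others (1.26 ± 0.20, adjusted p = 1.41e-07). Pdk1, the kinase that keeps pyruvate out of mitochondrial oxidation, was higher by 1.83 from 17 member UMIs (adjusted p = 0.0233). Of those that did not pass, the glucose transporter Slc2a1 was at 0.84 (adjusted p = 0.0695), Pkm at 0.60 (adjusted p = 0.0837) and Pgk1 at 1.10 (adjusted p = 0.148). Without replicates 1, 2 and 3 the test called 7, 4 and 3 genes of this list, and none among barcodes without UMIs of other cell types, where the median was 0.67.

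Of 10 tested glycogen genes, apart from Gbe1, only Ppp1r3b was higher. It targets a phosphatase to glycogen and stood at 289, 286 and 229 CPM in members against 102, 116 and 125 in the others (1.18 ± 0.34, adjusted p = 0.0218), with a list median of 0.25. The adrenomedullin receptor genes Calcrl, Ramp1, Ramp2 and Ramp3 had 0 UMIs in members and 60 in the others. None of 5 tested genes of mitochondrial transport and mitophagy outside the HIF list passed in edgeR (1 at an unadjusted p under 0.05, Fundc1, at a lower level) or in DESeq2.

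**Figure D2:**
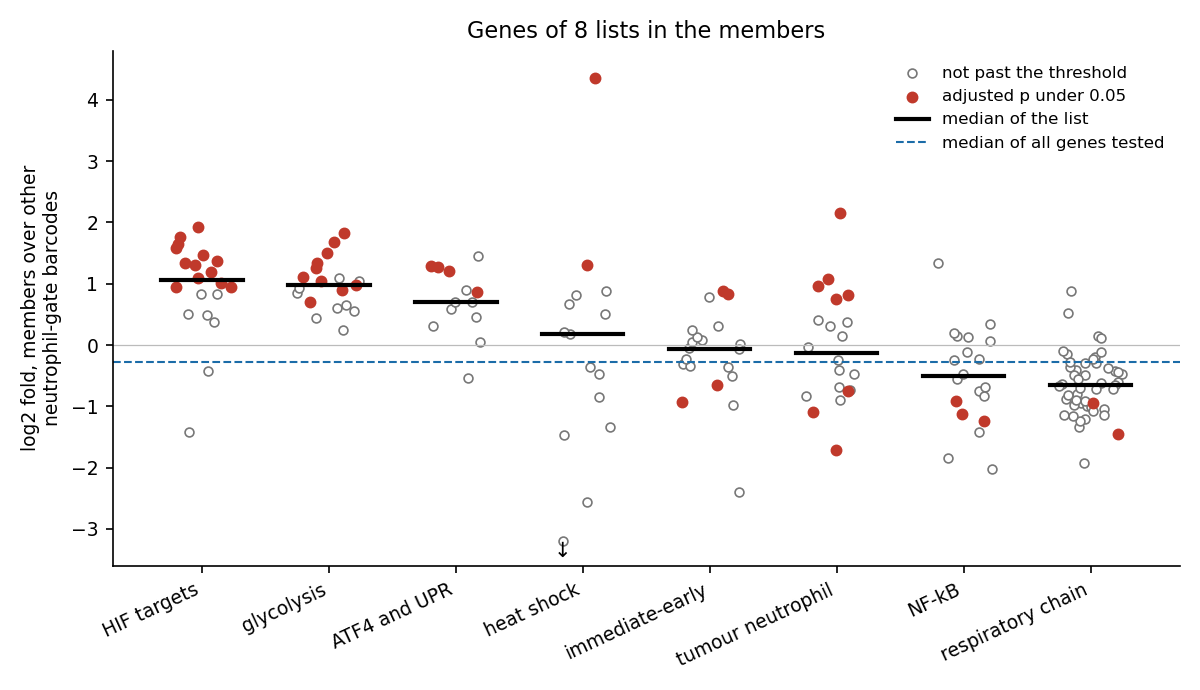
Log2 difference between members and the other neutrophil-gate barcodes (vertical axis) for each tested gene of 8 lists (horizontal axis), with genes at an adjusted p under 0.05 in red, list medians as black bars and the median of all tested genes as a dashed blue line at -0.28. The HIF list and the glycolysis list have medians of 1.05 and 0.98, and the respiratory chain list has a median of -0.65; Hspa4, at -7.46, is drawn at the lower edge with an arrow.

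Nuclear-encoded subunits of the respiratory chain had a median below that of all tested genes. Of 49 in the list, all tested, 45 had a negative log2 difference and 34 were lower in 3 of 3 libraries. The median was -0.65, against -0.28 over all 4320 tested genes. With that median below 0, most tested genes also had a negative difference. Their share below 0, or lower in 3 of 3 libraries, was not counted. In edgeR, 20 of the list reached an unadjusted p under 0.05, all lower, as did 635 of all tested genes in either direction. Only Ndufs5 (-1.45, adjusted p = 0.0497) and Cox6a1 (-0.95, adjusted p = 0.0346) passed the test, and DESeq2 called 0. Over all tested genes, 3.68% were called. Ndufb5, a complex I subunit that the list does not hold, was also lower (-2.58, adjusted p = 0.0381, from 2 member UMIs). Summed, they stood at 10939, 8776 and 10733 CPM in members and 15206, 15248 and 14914 in the others, so the groups did not overlap. When the others were drawn to the depth of the members, none of the list was called, the median was -0.40 and that of all genes -0.07. Mdh2, the mitochondrial malate dehydrogenase, was outside every list and stood at 260, 63.6 and 147 CPM in members against 496, 490 and 510 in the others (-1.68, adjusted p = 0.000271).

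In the endoplasmic reticulum, 4 of 13 tested genes of the ATF4 and unfolded-protein response were called, all of them higher (median 0.71). Atf4, the transcription factor of the integrated stress response, stood at 779, 922 and 967 CPM in members and 389, 315 and 389 in the others (1.28 ± 0.25, adjusted p = 9.66e-05). Dnajb9 and Hsp90b1, chaperones of this compartment, were higher by 1.20 and 1.29, and Ddit3, a transcription factor that ATF4 induces, by 0.86. Hspa5, the main chaperone of this compartment, was at 0.71 and did not pass (adjusted p = 0.16). Outside the lists and named after their values were seen, Calr and P4hb, which help proteins fold there, were higher by 1.21 and 1.05, Manf by 1.05 and the retrieval receptor Kdelr2 by 1.26.

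Most cytosolic chaperones did not pass the test. Of 15 tested heat-shock and chaperone genes, 2 were called, both higher, with a median of 0.18, although Hspa1a was a rule gene. The 23 listed genes, without Hspa1a, summed to 6436, 5533 and 6866 CPM in members and 4298, 4142 and 4624 in the others. This sum was thus higher in members in each library and was not tested. Hsp90aa1, the inducible Hsp90, stood at 722, 572 and 721 CPM in members and 273, 222 and 308 in the others (1.31 ± 0.27, adjusted p = 0.000242). The other was Hspa1b, with 57.7, 31.8 and 98.3 CPM in members against 3.82, 5.85 and 1.13 in the others from 9 member UMIs, which may belong to its near-copy Hspa1a. The constitutive Hsp70 gene Hspa8 (0.67, adjusted p = 0.192) and the co-chaperone Dnajb1 (0.18) did not pass. Dnajb4, Hspb1, Hspa4, Bag3, Hsf1 and Hsf2 had 0 UMIs in members.

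**Figure D3:**
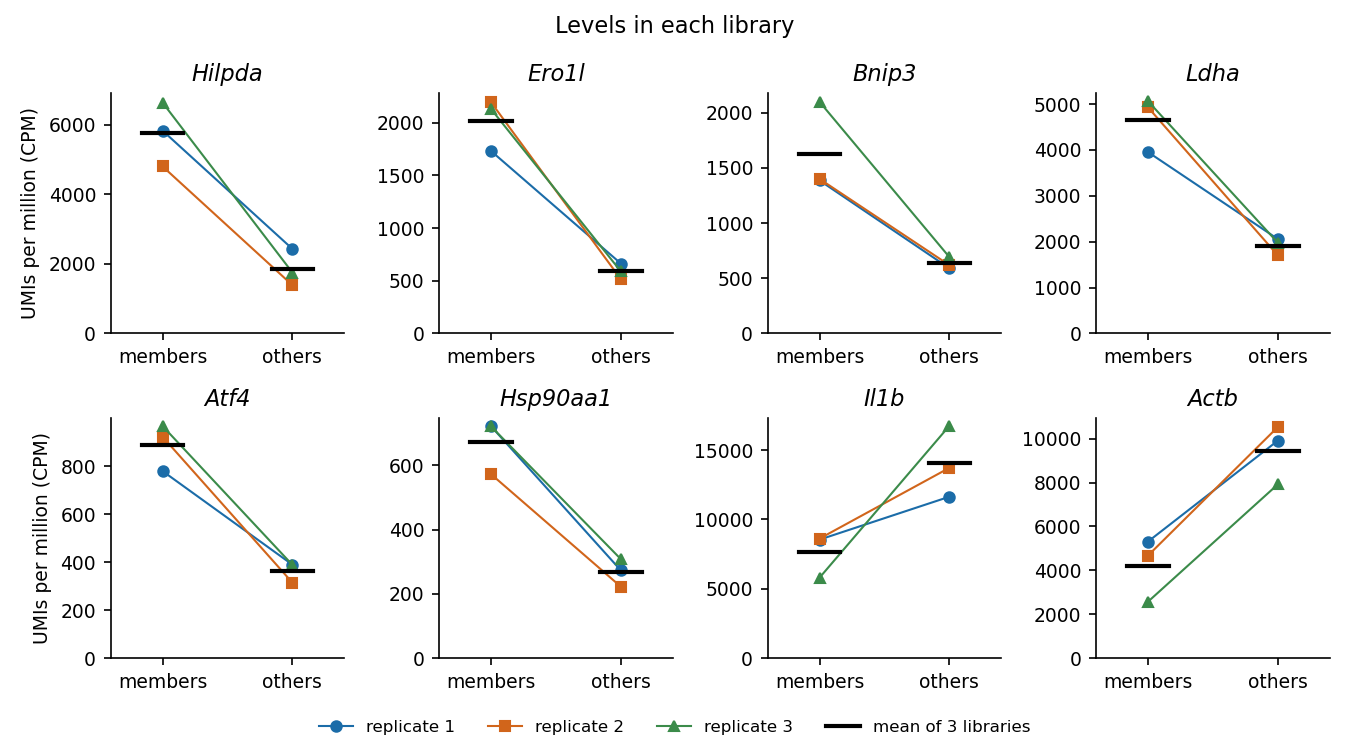
CPM per library of 8 genes in members (left in each panel) and in the other neutrophil-gate barcodes (right), with a point for each of the 3 libraries, lines joining the classes of a library, and bars for the means. Hilpda, Ero1l, Bnip3, Ldha, Atf4 and Hsp90aa1 are higher in members in every library, and Il1b and Actb are lower.

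Genes of oxidative stress and iron storage were higher in part, with 4 of 13 tested called and a median of 0.14. Fth1 and Ftl1, the ferritin chains that store iron, were higher by 0.73 and 0.63, Fth1 with 58474, 65759 and 63416 CPM in members against 42033, 33745 and 36007 in the others. The other calls were uneven. Hmox1, which degrades heme, stood at 289, 1113 and 1524 CPM in members and 406, 312 and 359 in the others, and so was lower in members of replicate 1. Mt1, a metallothionein, stood at 635, 63.6 and 2933 CPM in members against 615, 245 and 292 in the others. Its call (1.34) rests on replicate 3, without which the difference was -0.51.

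Among immediate-early genes, 2 of 20 were higher and 2 lower. Gadd45b and Atf3 were higher by 0.88 and 0.83, and Ier2 and Junb lower by -0.92 and -0.65. With the others drawn to the depth of members, 1 of this list was called higher, Gadd45b, and 0 lower. Of 18 tested blood neutrophil and granule genes, Prok2, a chemotactic peptide, and Lgals3, a galectin, were higher. Prok2 stood at 404, 795 and 1262 CPM in members and 356, 323 and 300 in the others (1.32, adjusted p = 0.000118), with replicate 1 close to the others. Lgals3 was higher by 0.83 (adjusted p = 0.00707).

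Genes reported for tumour neutrophils moved in both directions, with 5 of 20 higher and 3 lower (median -0.14). The higher ones were Nos2 (inducible nitric oxide synthase; 2.15 from 13 member UMIs), Cd274 (the checkpoint ligand PD-L1; 1.08, with 433, 700 and 574 CPM in members and 305, 244 and 256 in the others), Basp1 (0.96), Cstb (0.75) and Hcar2. Hcar2, a receptor for hydroxybutyrate and niacin, stood at 1876, 2003 and 2016 CPM in members against 1378, 923 and 1040 in the others (0.82, adjusted p = 0.00629). The lower ones were the chemokine gene Ccl4 (-0.75), the receptor gene Clec5a (-1.09) and Spp1, which encodes osteopontin (-1.72 from 9 member UMIs). Without replicate 2, none of this list was called in either direction. Without replicate 1 the calls were 2 higher and 2 lower, and without replicate 3 there was 1 higher. With the others drawn to the depth of members, the calls were 4 higher and 0 lower.

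Inflammatory genes were lower where they were called at all. Of 20 tested NF-kB and cytokine genes, 3 were called, all of them lower, with a median of -0.51. Il1b, which encodes interleukin-1 beta, stood at 8543, 8617 and 5801 CPM in members and 11635, 13717 and 16744 in the others (-0.91 ± 0.20, adjusted p = 0.000492). The groups did not overlap, but the adjusted p was 0.28 without replicate 2 and 0.266 without replicate 3. Tnfaip2 was lower by -1.12. Cxcl10, an interferon-induced chemokine, stood at 28.9, 31.8 and 393 CPM in members against 327, 449 and 449 in the others (-1.25, adjusted p = 0.0147), and it was at 0.50 among barcodes without UMIs of other cell types. Tnf did not pass (-1.41, adjusted p = 0.0837). Of 21 interferon-stimulated genes only Ifi47 was lower (-2.31 from 3 member UMIs), and of 6 NADPH oxidase genes only Rac2, the small GTPase of neutrophils (-0.95, adjusted p = 0.00717). With the others drawn to the depth of members, Il1b was still called lower (edgeR, adjusted p = 0.036). Tnfaip2, Cxcl10, Ifi47 and Rac2 did not pass there (adjusted p = 0.125, 0.104, 0.0861 and 0.104).

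None of 18 survival and death genes or 10 chemoattractant receptors passed in edgeR (2 and 3 at an unadjusted p under 0.05) or in DESeq2. Bcl2l1, which encodes the survival protein Bcl-xL, was at 0.69 and did not pass. Of the markers of other cells, Cd74, the chaperone of antigen-presenting molecules, was lower (-1.19), and Csf1r (-0.43), Ly6c2 (0.34) and Krt18 (-0.03) did not pass. Icam1, the adhesion molecule in the series title, was present in 8 of 84 members (9.52%, with 28.9, 31.8 and 115 CPM from 9 UMIs), in 11.2% of the others (119, 140 and 119 CPM) and in 4.73% of barcodes with Cd3.

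Other genes with high differences lay outside the lists. Whether they respond to hypoxia was not tested, so they too may not be independent of the choice by Mgarp, Adm and Gbe1. Errfi1, a feedback inhibitor of the epidermal growth factor receptor, stood at 173, 318 and 426 CPM in members and 51.6, 53.3 and 61.8 in the others (2.52 ± 0.34, adjusted p = 2.44e-10). Ccng2, an atypical cyclin linked to growth arrest, stood at 404, 286 and 410 CPM in members against 105, 74.8 and 84.0 in the others (2.09 ± 0.32, adjusted p = 2.83e-08). Sap30, a subunit of a histone deacetylase complex, stood at 606, 731 and 492 CPM in members against 147, 157 and 153 in the others (1.95 ± 0.28, adjusted p = 2.01e-09). The kinase genes Mapk6 and Pim3 were higher by 2.08 and 2.02, Stard4 (cholesterol transport) by 1.99, Echdc3 by 1.85, Sars (seryl-tRNA synthetase) by 1.78 and Pcgf5 (a Polycomb component) by 1.75. At the other end, Lsm6 had 0 UMIs in members and was at least 3.08-fold lower, taking 3 counts over the member sum as the floor. Limd2, Ndufb5 (the complex I subunit named above), AW011738, Crip1, Erh, Lamtor2, Scimp, Bola2, Lamtor4 and Tmsb10 were lower by -2.58 to -1.92, each from 10 or fewer member UMIs.

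Actb, cytoplasmic actin, stood at 5311, 4674 and 2573 CPM in members and 9907, 10529 and 7917 in the others (-1.25 ± 0.20, adjusted p = 1.66e-07). Pfn1, which feeds actin monomers to filaments, and Arpc1b, a subunit of the branching complex, were chosen after their values were seen and were lower by -0.97 and -0.98. Of all 159 calls, 16 also passed with any 1 library left out: Actb, Atf4, Bnip3, Ccng2, Cdk2ap2, Ero1l, Gpi1, Higd1a, Hilpda, Hsp90aa1, Ifrd1, Ldha, Mdh2, Sap30, Tiparp and Txnip.

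Levels of the lists were also set against the number of rule-gene UMIs, as a description without a test. Summed HIF targets stood at 8062, 14658, 15925, 19696 and 16932 CPM in barcodes of replicate 1 with 0, 1, 2, 3 and 4 or more such UMIs. The corresponding values were 6185, 10691, 15902, 20314 and 16971 in replicate 2, and 7057, 12202, 19941, 25769 and 19172 in replicate 3. In each library the level was thus already higher with 1 rule-gene UMI, below the threshold, and was highest with 3. Total UMIs per barcode also differed between these bins, and the bins of 3 held only 15, 6 and 14 barcodes and those of 4 or more 13, 13 and 23. The mix of rule genes differed too: 31 of 35 barcodes with 3 UMIs held no Hspa1a, against 56 of all 84 members. Where Hspa1a outnumbered the other rule genes, summed HIF targets stood at 11676, 16120 and 17881 CPM by library. They stood at 21237, 18559 and 23491 in the other members. The part of this mix in the levels by bin was not tested. Respiratory chain genes stood at 15739, 11735, 12219, 13276 and 8923 CPM in replicate 1, and in all 3 libraries each bin with rule-gene UMIs lay below the bin with none.

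**Figure D4:**
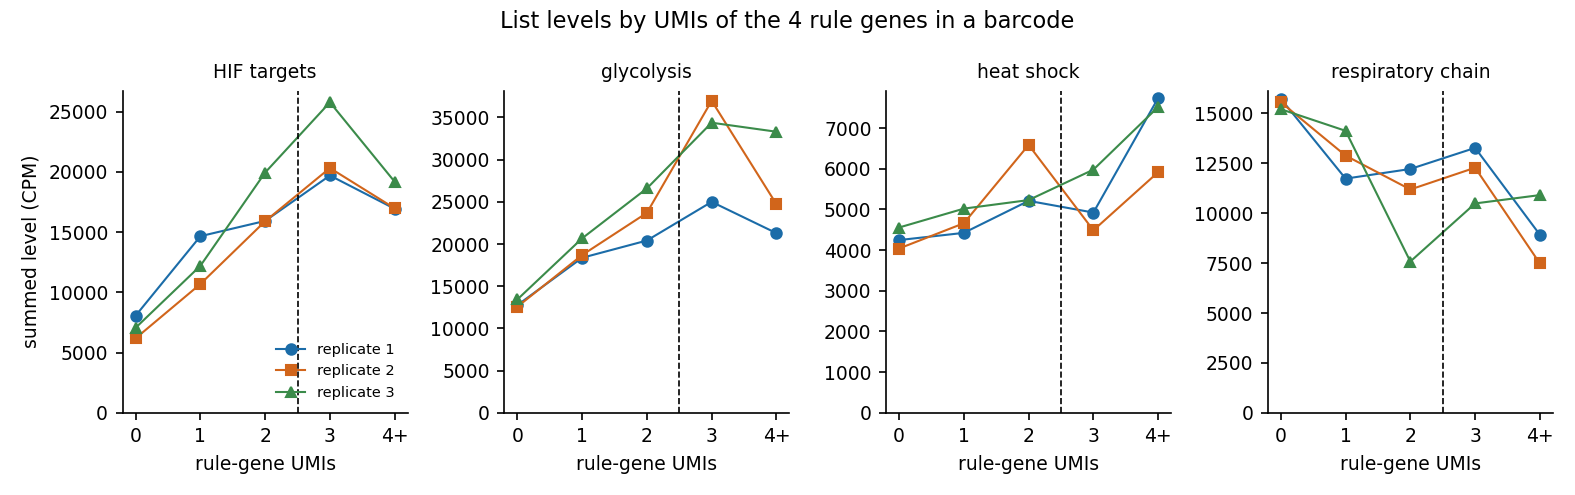
Summed CPM of 4 gene lists (vertical axes) in gate barcodes with 0, 1, 2, 3 and 4 or more rule-gene UMIs (horizontal axis), with a line for each library and a dashed line at the threshold for members. HIF targets and glycolysis genes are higher with 1 rule-gene UMI than with 0 in all 3 libraries, as in replicate 1 with 14658 against 8062 CPM for HIF targets.

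Since the rule pools genes of different programs, the members were split by which rule genes led. Mgarp, Adm and Gbe1 together outnumbered Hspa1a in 57 members (19, 13 and 25 by library; median 1444 UMIs), and Hspa1a outnumbered them in 27 (9, 6 and 12; median 1162 UMIs). The sums held 90790 and 36332 UMIs, so 422 well covered genes could be tested, in 1 joint fit. Both kinds were set against the same other barcodes, so their values stand side by side and their likeness is not a result. Against these, 54 genes were higher and 21 lower in Mgarp/Adm/Gbe1-led members (17.8% called, 12.8% higher and 4.98% lower), and 35 were higher and 9 lower in Hspa1a-led members (10.4% called, 8.29% higher and 2.13% lower; 23 and 14 with library totals in place of TMM scaling). Without replicates 1, 2 and 3 the counts were 88, 12 and 33 for the first kind and 34, 4 and 12 for the second.

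Chaperone genes stood highest in the Hspa1a-led members. Hspa1a is itself a chaperone gene and set the kinds, so these differences are not independent of the split. Of 4 heat-shock genes tested between the kinds, 1 was called, Hspa8. Hspa8 (chr9:40800984-40810087), the constitutive Hsp70, stood at 380, 221 and 314 CPM in Mgarp/Adm/Gbe1-led members, 821, 1015 and 1455 in Hspa1a-led members and 336, 339 and 331 in the others. The 2 kinds of members did not overlap and differed by -1.92 ± 0.37 (Mgarp/Adm/Gbe1-led over Hspa1a-led, adjusted p = 0.0235). BC100530 (chr16:36359382-36367748), a member of the stefin A cluster of cysteine protease inhibitors, was the only other gene called between the kinds (0.474% of 422 called). It stood at 127, 532 and 292 CPM in Mgarp/Adm/Gbe1-led members and 730, 2255 and 2061 in Hspa1a-led members (-2.49 ± 0.44, adjusted p = 0.0185), with 504, 485 and 445 in the others. Stefin A genes are similar in sequence, and reads could be split among them. Neither call passed without replicate 2 (adjusted p = 0.271 for Hspa8 and 0.21 for BC100530) or without replicate 3 (0.222 and 0.162).

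Hsp90aa1 stood at 507, 443 and 494 CPM in Mgarp/Adm/Gbe1-led members, 1186, 902 and 1333 in Hspa1a-led members and 273, 222 and 308 in the others. It was higher than in the others in both kinds (0.90 and 2.21), and the difference between the kinds did not pass (-1.31, adjusted p = 0.0742). Hspa1b was present in 0 of 57 Mgarp/Adm/Gbe1-led members, which allows a share of up to 5.26%, in 7 of 27 Hspa1a-led members (25.9%), in 0.331% of the others and in 0.659% of barcodes with Cd3. Ubb, a ubiquitin precursor, was higher in Hspa1a-led members by 0.81 (adjusted p = 0.0179) and at 0.52 in the other kind (adjusted p = 0.062). Of 4 heat-shock genes tested here, 1 was higher in Mgarp/Adm/Gbe1-led and 3 in Hspa1a-led members.

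HIF targets were higher in both kinds, though the Hspa1a-led members were not free of the other rule genes. Of these 27 members, 20 held Hspa1a alone, and the rest also held Mgarp, Adm or Gbe1. Among the rest, 1 held 3 and another 5 such UMIs, which meets the threshold without Hspa1a. In replicate 2, 1 mixed barcode held 3569 of the 8871 UMIs of this kind. The HIF list was not summed apart for the members with Hspa1a alone. Of 11 tested, 10 were higher in Mgarp/Adm/Gbe1-led members (median 1.26, against -0.04 for all genes) and 5 in Hspa1a-led members (median 1.10, against -0.03). Hilpda stood at 6882, 5315 and 7681 CPM in Mgarp/Adm/Gbe1-led members, 3557, 3495 and 3819 in Hspa1a-led members and 2431, 1388 and 1751 in the others. Its difference from the others passed in both kinds (1.92, adjusted p = 3.5e-05, and 1.10, adjusted p = 0.00778), and the difference between the kinds did not (0.82, adjusted p = 0.105). Ero1l was at 1816, 1949 and 1999 CPM in Mgarp/Adm/Gbe1-led members, 1551, 2818 and 2485 in Hspa1a-led members and 663, 515 and 589 in the others. Higd1a, Bhlhe40 and Bnip3l also passed in both kinds, with 1.61, 1.26 and 1.05 in the first and 1.41, 1.34 and 1.18 in the second. Bnip3 was higher in the first (1.59, adjusted p = 0.000411) and did not pass in the second (0.94, adjusted p = 0.051).

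Egln3 and Ankrd37, named after their values were seen, stood higher in Mgarp/Adm/Gbe1-led members without passing the test between the kinds. Egln3 stood at 1224, 709 and 1145 CPM in Mgarp/Adm/Gbe1-led members, 182, 338 and 485 in Hspa1a-led members and 516, 311 and 455 in the others. Ankrd37 stood at 549, 753 and 764 CPM in Mgarp/Adm/Gbe1-led members, 274, 113 and 242 in Hspa1a-led members and 312, 304 and 318 in the others. The kinds of members did not overlap for either gene, yet the differences between them missed the threshold (1.53, adjusted p = 0.105, and 1.63, adjusted p = 0.11). All 10 tested glycolysis genes were higher in Mgarp/Adm/Gbe1-led members, and 4 in Hspa1a-led members, in which Ldha was at 1.17, Gapdh at 1.10, Hk2 at 1.21 and Aldoa at 0.85. Gpi1 was higher by 2.02 in the first kind and at 0.66 in the second (adjusted p = 0.355), with a difference between them of 1.37 (adjusted p = 0.145).

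**Figure D5:**
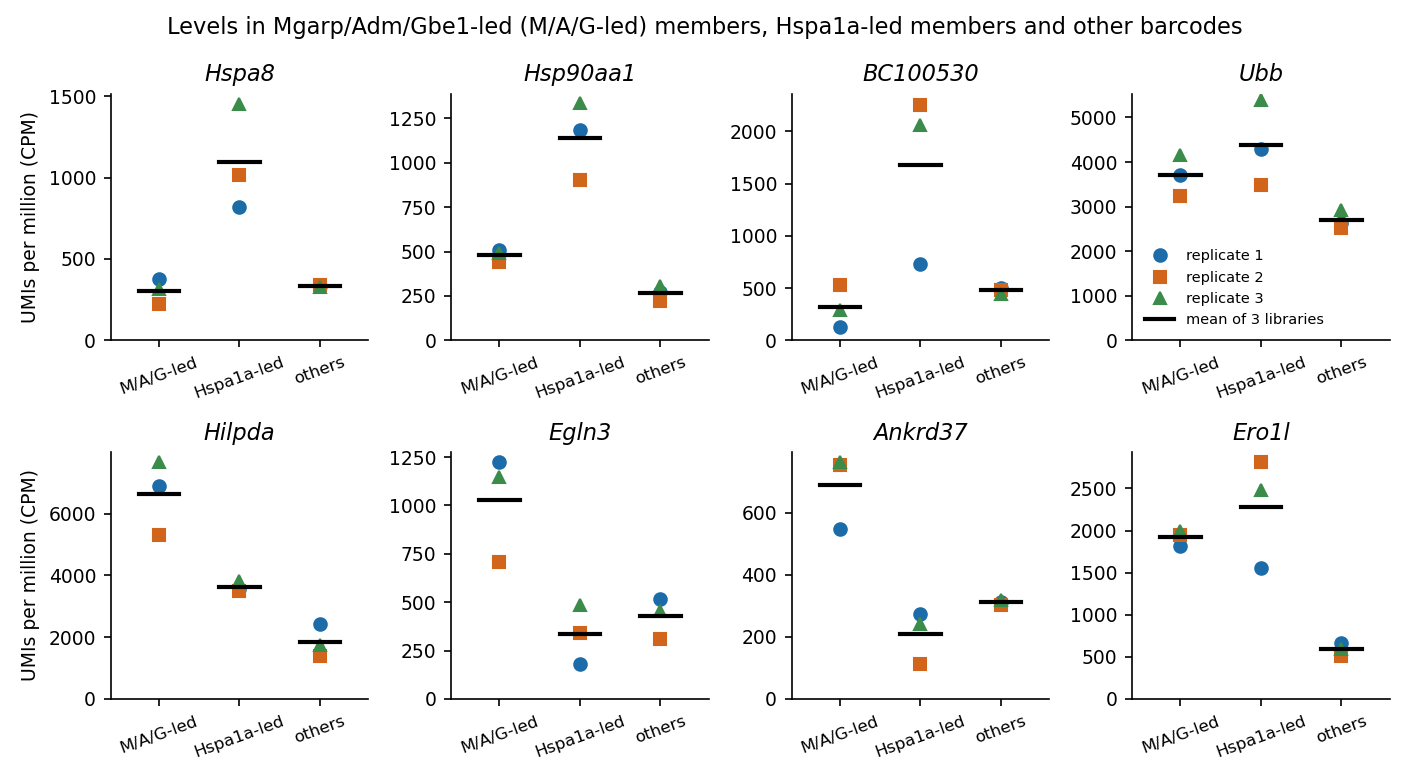
CPM per library of 8 genes in Mgarp/Adm/Gbe1-led members (left), Hspa1a-led members (middle) and the other neutrophil-gate barcodes (right), with a point for each of 3 libraries and bars for the means. Hspa8 and BC100530 are highest in the middle class in every library, and Ero1l is high in both kinds of members. Egln3 and Ankrd37 are highest in the left class, without passing the test between the kinds.

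Further genes of the Hspa1a-led members were Sde2 and Ankrd33b, higher by 2.25 and 2.17, and Sap30 and Ero1l, named above. Cxcl10 had 0 of 36332 UMIs there and was at least 5.08-fold lower than in the others, with 3 counts over the class as the floor. Mdh2 was lower by -2.09, Cdk2ap2 by -1.24, Ccl4 also (adjusted p = 0.0182), Lst1 by -0.98 and Actb by -0.97. In Mgarp/Adm/Gbe1-led members the lowest were Arpp19 and Mdh2 (-1.45 each), Sh3bgrl3 (-1.34), Timm10b and Txnip (-1.29 each) and Actb (-1.25), and Tiparp was among the highest. Mt1 stood at 887, 88.6 and 3975 CPM in Mgarp/Adm/Gbe1-led members and 91.2, 0 and 121 in Hspa1a-led members, which differed by 4.32 without passing the test (adjusted p = 0.0839).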

How the data were processed

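The 3 single-cell RNA libraries form 1 group. As deposited, each matrix gives UMI counts (whole, not normalised) of 28692 genes, and no barcode has fewer than 500 UMIs. Reads were processed with Cell Ranger and Seurat on mm10, per the submitters' processing notes; tool versions were not given in the sources. The matrices give a software version of 3.0.0, per the file headers.

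The filters removed 22 barcodes for having fewer than 200 genes and 107 for a mitochondrial share over 10%, and no doublet caller was run. An alternative left out barcodes with UMIs of other cell types. Counts were summed per library and class and tested by the quasi-likelihood method of edgeR 4.0.16 under R 4.3.3 (limma 3.58.1), after filterByExpr (minimum count 10) and TMM scaling, leaving out the 13 rule genes. Library was the block, because the paired sums are from 1 library, and p-values were adjusted over all genes tested by Benjamini-Hochberg. DESeq2 1.42.0 was an alternative. Log2 levels carry a prior count of 0.5, and fitted differences of genes near 0 counts depend on it. Standard errors come from the F statistic. Thinned alternatives used 1000 UMIs per barcode and seed 11. On simulated counts for members against others (4375 genes), 75.5% of genes raised 4-fold and 14% of those raised 2-fold were recovered. So were 27.7% of those lowered 4-fold and 6.67% of those lowered 2-fold, with 0 false calls among 60. A like simulation for the kinds (431 genes) had 1 false call among 66. Both gave every gene the same dispersion and chose no barcodes by rule genes, so they do not measure false calls in the real comparisons.

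The members and the gene lists were chosen with earlier results of these data known. The kinds of members were to be tested with at least 20 barcodes per library; no kind reached this, so a minimum of 5 was set after the data were seen. Genes were named by rule: the 12 highest and 12 lowest log2 differences (6 and 6 between kinds) among called genes whose mean log2 CPM was 5 or more and whose direction was the same in 3 of 3 libraries, plus up to 5 called genes per list, or the 2 with the lowest p. Other genes were named after their values were seen. Intervals (95%, Clopper-Pearson) and floors (3 counts) cover counting error only. Positions are from GENCODE on GRCm38 and promoters from RefSeq on GRCm38.p6, of which windows that overlap an annotated exon are counted but not printed. Python 3.11.15, numpy 2.4.6, scipy 1.17.1, pandas 2.3.3 and matplotlib 3.10.9 were used.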

Additional observations from a re-analysis of the deposited data

Results flagged for a closer look

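The kinds of members differed in 2 genes by a test of the difference itself. Hspa1a UMIs set the kinds, so the difference in Hspa8, another Hsp70 gene, is not independent of that split. BC100530, of the stefin A family, stood at 127, 532 and 292 CPM in Mgarp/Adm/Gbe1-led members and 730, 2255 and 2061 CPM in Hspa1a-led members, a log2 difference of -2.49 (edgeR, adjusted p = 0.0185; lower in 3 of 3 libraries). Hspa8 stood at 380, 221 and 314 CPM in Mgarp/Adm/Gbe1-led members and 821, 1015 and 1455 CPM in Hspa1a-led members, a difference of -1.92 (adjusted p = 0.0235; lower in 3 of 3 libraries). Over the alternatives the adjusted p of BC100530 lay between 0.000662 and 0.21, and that of Hspa8 between 0.00265 and 0.479. The members of the first kind had a median of 1444 UMIs and those of the second 1162. With barcodes thinned to 1000 UMIs, BC100530 was at -2.62 (edgeR, adjusted p = 0.00525) and Hspa8 at -2.09 (adjusted p = 0.113). That fit left out replicate 2 of the Hspa1a-led members, where 3 barcodes remained. The part of depth was not tested further.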

How the results depend on the processing

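The member sums hold 127122 UMIs, so genes at low levels could not be tested in members, and a p above 0.05 does not show likeness. For members against the others, where 159 genes were called, the count was 91 with DESeq2, 81 with the others drawn to the depth of members, 41 with barcodes thinned to 1000 UMIs, 19 with members chosen after thinning, 26 without UMIs of other cell types, and 40 to 88 without 1 library. For Mgarp/Adm/Gbe1-led members (75 called) it was 45 with drawn and 48 with thinned barcodes, and 12 to 88 without 1 library. For Hspa1a-led members (44 called) it was 171 with no filter on low counts, 27 drawn, 7 thinned, 14 chosen after thinning, 29 with all rule-gene UMIs of 1 kind, and 4 to 34 without 1 library. Between the kinds (2 called) it was 6 with DESeq2, 6 with no filter, 7 thinned, 7 chosen after thinning, 8 with UMIs of 1 kind, and 0 to 3 without 1 library (without replicate 2, where edgeR called 0, 46 genes had an unadjusted p under 0.05). The cause of these shifts was not tested, though leaving out a library or barcodes also leaves fewer counts. The member share was 3.95% at 2 or more rule-gene UMIs, 0.669% at 5 or more, 3.17% when barcodes needed 500 genes and no more than 5% of UMIs could be mitochondrial, and 5.05% after thinning.

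Without the replicate block, in which both sums of a library are paired, the counts were 169, 88, 53 and 3, against 159, 75, 44 and 2 with it, all within 1.5 times. The gates of at least 5 rule-gene UMIs, of 500 genes and without other cell types were not run for the kinds, which left too few barcodes.

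Over all alternatives, 12 values of single genes changed direction. Krt18 (-0.03) was at 0.32 without replicate 2, 0.058 with drawn barcodes, 1.52 thinned, 1.15 chosen after thinning and 0.64 with at least 500 genes. With 1 library left out, Optn (1.02) lay at -0.019 to 1.26, Mt1 (1.34) at -0.51 to 1.96, Ly6c2 (0.34) at -0.41 to 0.52 and Csf1r (-0.43) at -1.13 to 0.072, each changing direction without replicate 3. Ly6c2 was at -2.02 with at least 5 rule-gene UMIs, Bcl2l1 (0.69) at -0.12 chosen after thinning, and Cxcl10 (-1.25) at 0.50 without other cell types. Of list medians, glycogen (0.25) was at -0.21 with at least 5 rule-gene UMIs and -0.34 without other cell types, heat shock (0.18) at -0.12 with no filter and at -0.081 (without replicate 1) to 0.35 with 1 library left out, immediate-early genes (-0.06) at 0.011 with DESeq2 and 0.0073 drawn, NRF2 (0.14) at -0.15 with no filter and -0.53 with at least 5 rule-gene UMIs, and tumour neutrophil genes (-0.14) at 0.071 drawn, 0.16 chosen after thinning and 0.31 with at least 500 genes. The cause was not tested. The medians of HIF targets (0.74 to 1.18) and glycolysis (0.59 to 1.16) stayed above 0 in each alternative run.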
